A study of Mus musculus with 2 samples.

Results

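Of 14103 TET2 peaks called in mouse adipocytes, 1894 lay away from genes' start sites and consisted mostly of repetitive DNA. They were the autosomal peaks with a midpoint over 3 kb from any annotated transcription start site (TSS), outside coding sequence and untranslated regions, and with at least 80% of their bases in lower case in the RefSeq GRCm38 sequence, which marks repeats in that way. Of the deposited peaks 13828 were autosomal, 6887 of these were over 3 kb from a TSS, and 5746 also lay outside coding sequence and untranslated regions. These 5746 distal peaks divided into the 1894 repeat-dominated peaks and 3852 other distal peaks, which were masked over less than 80% of their length and are the comparison set. The rule used position and sequence only, so the strength of the peaks was free to differ between the sets.

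The cells were mouse adipose-derived stem cells from inguinal white fat at passage 3, differentiated into adipocytes in culture with IBMX, dexamethasone and insulin. Fixed chromatin was precipitated with an antibody against TET2 and sequenced as 1 library, beside 1 input library of chromatin without precipitation. There was no replicate, no second antibody and no sample without TET2, and the labels give no genotype, sex or age (the study names male mice for its experiments), so the values below describe 1 library and intervals cover counting error only. For each peak the authors deposited an interval and a value that is read here as the −log10 p of the peak caller. The stated p-value setting of 1e-05 is a −log10 p of 5, yet 436 repeat-dominated peaks have a lower value. Sequencing was paired-end. The number of reads behind each peak is unknown, since the list holds no read totals and the study gives a yield without counts per library.

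TET2 is an enzyme that oxidises methylated cytosine to hydroxymethylcytosine, a step toward loss of methylation, and it acts mostly at CpG, a cytosine followed by a guanine. It has no DNA-binding domain of the CXXC type and reaches its places through partner proteins. LINE-1 elements are retrotransposons that copy themselves through RNA and make up much of the repetitive DNA of mammals. A full-length mouse element begins with a promoter built of tandem copies of one unit, called monomers, which are rich in CpG and usually methylated. A short open reading frame follows, then a long frame that encodes an endonuclease and a reverse transcriptase, and the element ends in an A-rich tail. Most elements lack their front part, because copying often stops early.

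Many of the repeat-dominated peaks were variants of shared sequences, which a rule that selects repeats favours. Other distal peaks were not grouped in this way. At 90% identity over at least 80% of the shorter peak, 970 of the 1894 (51.2%, exact 95% binomial interval 48.9% to 53.5%) had a relative among the others, and 6 groups held 20 or more. For each of these groups the stretch of 30 bases found in the largest number of its peaks is shown, as the sequence most widely shared in it. It is given on the plus strand of GRCm38, with CpG in capitals, and many peaks of a group can lack it. The stretches of groups 1, 2, 3 and 6 also stood in 60, 29, 40 and 33 other distal peaks, and those of groups 4 and 5 in 0 and 2.
group 1: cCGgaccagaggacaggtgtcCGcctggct
group 2: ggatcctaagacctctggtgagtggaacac
group 3: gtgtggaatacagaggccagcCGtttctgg
group 6: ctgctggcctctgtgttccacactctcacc
group 4: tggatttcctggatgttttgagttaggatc
group 5: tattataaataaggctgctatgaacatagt
The stretch of group 1 is read at chr12:61154614-61154643 and stood in 139 of the 298 peaks of its group. It occurred 2058 times in the assembly. That of group 2 lies at chr1:85147757-85147786, was shared by 109 of 157 peaks and had 3400 copies. That of group 3 lies at chr2:83513432-83513461, in 62 of 151 peaks and with 491 copies, and that of group 6 at chr6:10930147-10930176, in 42 of 50 peaks and with 256 copies. The stretches of the AT-rich groups had more copies in the genome, that of group 5 by far, and were less often shared by the peaks. The one of group 4, at chr12:46298176-46298205, stood in 18 of 125 peaks and had 6625 copies, and the one of group 5, at chr17:17285784-17285813, stood in 18 of 105 peaks and had 32328 copies.

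Groups 1, 2, 3 and 6 together held 656 peaks (34.6%, 32.5% to 36.8%). Their median GC content was 58.1%, 58.7%, 60% and 60.6%, with a median of 19, 18, 19 and 22 CpG per peak. Groups 4 and 5 held 230 peaks (12.1%, 10.7% to 13.7%), with a median GC content of 36.8% and 41.1% and a median of 2 CpG per peak in both. Every one of the 6 groups was spread over at least 17 autosomes. The groups depend on the limits: at 80% identity over 50% of the shorter peak, 1733 peaks (91.5%, 90.2% to 92.7%) joined 17 groups and 1679 of them a single one.

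To place the peaks along LINE-1, the 10 kb on either side of each midpoint was searched with the translation of 1 long reading frame of 1300 codons, which lies at chr1:76353128-76357027 downstream of the peak at chr1:76351193-76351651 and holds the catalytic motif of LINE-1 reverse transcriptase. That frame was chosen after values were seen, as were the zones named here. Similar sequence lay within that distance of 1658 repeat-dominated peaks (87.5%, 86.0% to 89.0%) and of 1686 other distal peaks (43.8%, 42.2% to 45.4%). The head of an element was defined as the 3 to 1 kb before the start of the long frame, where the promoter and the front of the short frame lie. It held 845 repeat-dominated peaks (44.6%, 42.4% to 46.9%) and 599 other distal peaks (15.6%, 14.4% to 16.7%). LINE-1 sequence is itself repetitive, so the rule that chose the peaks raised both shares, and the differences between the sets are not read as results.

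Within the head the repeat-dominated peaks were stacked in a narrow band. Their median midpoint lay 1607 bp before the frame, and the middle 50% lay between 1725 and 1510 bp before it. The aligned frames behind them had a median amino acid identity of 94.8% to the reference frame. Where several alignments could place a peak in the head, the one of highest identity was kept, which raises this median. The mirror window, 1 to 3 kb behind the end of a frame, held 130 repeat-dominated peaks (6.86%, 5.77% to 8.10%) and 217 other distal peaks (5.63%, 4.93% to 6.41%). Another 371 repeat-dominated peaks (19.6%, 17.8% to 21.4%) had their midpoint inside an aligned stretch of the long frame, where the median identity was 76.4%. That value comes from the nearest alignment, so it cannot be set against the one for the head. Only 37 other distal peaks did, which the rule largely fixes, since such sequence is masked. The CpG-rich groups lay in the head with 609 of 656 peaks (92.8%, 90.6% to 94.7%). Group 4 lay around the start of the long frame, with 54 of its 125 peaks in the last 1 kb before it and 60 in the frame, and group 5 toward its end, with 82 of 105 in the frame and 19 in the 1.5 kb after it.

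**Figure D1:**
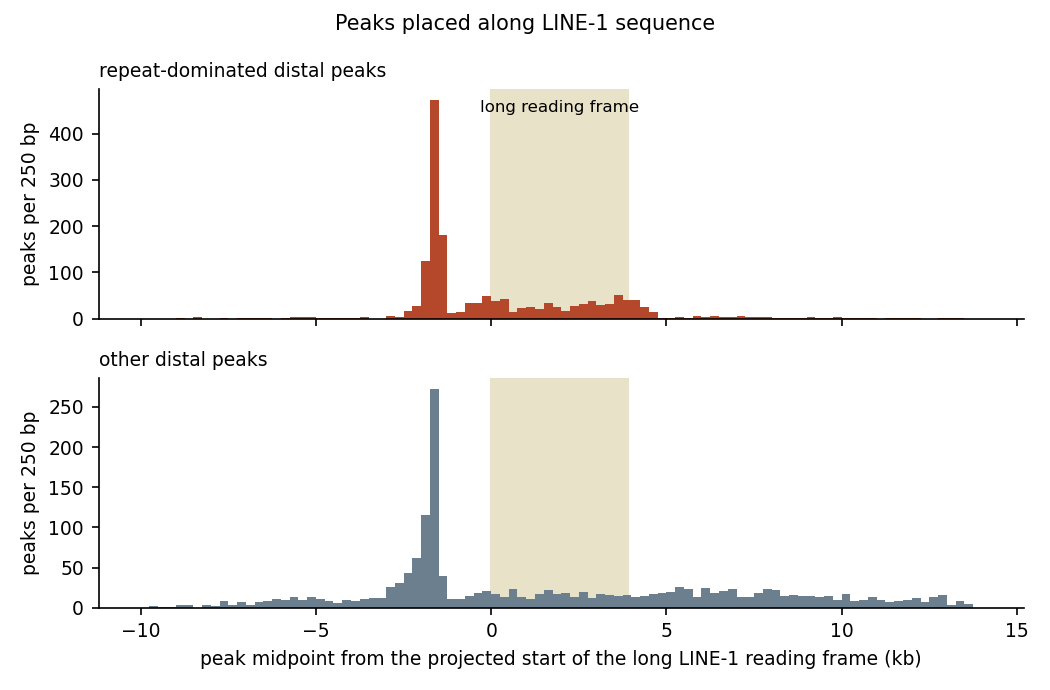
Number of distal TET2 peaks per 250 bp (vertical axis) by the distance of the midpoint from the projected start of the long LINE-1 reading frame (horizontal axis, kb, negative before the start), for repeat-dominated peaks above and other distal peaks below; the shaded band is the frame of 1300 codons. Both sets crowd just before 1.5 kb ahead of the frame, with a median of 1607 bp for the 845 repeat-dominated peaks in the head. The span of the frame holds 473 repeat-dominated and 253 other distal peaks, a split on which the rule on masked bases bears.

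The same layout was seen when intact frames rather than peaks were counted. The autosomes held 3873 intact frames of at least 1000 codons with the catalytic motif. A TET2 peak of any kind had its midpoint 1 to 3 kb before 342 of them (8.83%, exact 95% interval 7.96% to 9.77%), and for 160 frames it was a repeat-dominated peak. The window 1 to 3 kb behind the frame held a peak in 32 cases (0.826%, 0.566% to 1.16%), and the window 10 to 12 kb before it in 29 (0.749%, 0.502% to 1.07%). The densest bins were those from 1750 to 1500 bp before the frame, with 95 peaks, of which 68 were repeat-dominated, and from 2000 to 1750 bp before it, with 89 peaks, of which 40 were repeat-dominated.

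The interiors of intact frames were almost without peaks: 1 in the bin from 250 to 500 bp, 1 in that from 500 to 750 bp, and none from 750 to 4500 bp. Words of DNA from there mostly occur in many copies. For the 342 frames with a peak before them, a median of 0.491% of the words of 32 bases inside the frame occurred once in the assembly, against 47.8% of those 1 to 3 kb before it. The median copies of a word were 7818 and 2. In a sample of 354 frames without a peak, a median of 46.9% of the words 1 to 3 kb before the frame occurred once, and the median copies were 9, with an upper quartile of 979.5 against 250.2 for frames with a peak. Read length and the placing of reads with several matches are not known, and their part in the empty frames and in the lack of a peak was not tested.

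**Figure D2:**
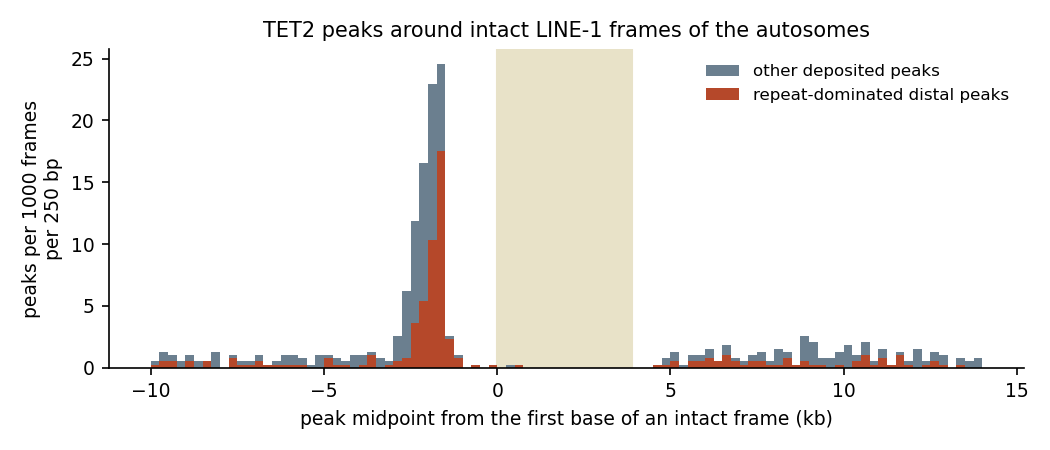
TET2 peaks per 1000 intact LINE-1 frames in bins of 250 bp (vertical axis) by distance from the first base of the frame (horizontal axis, kb) for the 3873 autosomal frames; full bars are all deposited peaks, with the repeat-dominated part in the darker red, and the shaded band marks a frame of 1300 codons. Peaks rise between 3 and 1 kb before the frame, to 95 peaks over all frames in the highest bin, and are nearly absent inside it.

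The share of intact frames with a peak also differed by the CpG content of the sequence before them. Whether that sequence was the front part of a LINE-1 element was not checked. Where the 1.5 kb ending 1 kb before the frame held 0 to 9 CpG, none of 142 frames had a peak before it, with an upper limit of 2.56%. With 10 to 19 CpG, 14 of 235 frames had one (5.96%, 3.30% to 9.79%). The share was 10.7% (9.21% to 12.4%) of 1500 frames with 20 to 39 CpG and 9.61% (7.99% to 11.4%) of 1176 with 40 to 59. At 60 CpG or more it was 6.59% (4.99% to 8.51%) of 820 frames, so it did not go on rising with the number of CpG.

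The strength of the repeat-dominated peaks was ordinary for distal peaks, except at the top. The median −log10 p was 6.04, with quartiles of 5.00 and 7.20 and extremes of 3.07 and 24.4. Other distal peaks had a median of 6.06 and a largest value of 176.4. A −log10 p of at least 10 was reached by 81 repeat-dominated peaks (4.28%, 3.41% to 5.29%) and by 232 other distal peaks (6.02%, 5.29% to 6.82%), beside 8.66% of all deposited peaks. The 1894 peaks shared 175 distinct values of −log10 p, and the commonest, 5.13, was that of 313 peaks. For 1013 peaks (53.5%, 51.2% to 55.8%) the value equals, within 0.002, the −log10 probability that a Poisson count of mean 0.680 exceeds a whole number from 4 to 11, and a −log10 p of 5.13 is that of a count over 6. The mean was chosen to take in as many of the deposited values as possible, and it took in 33.6% of all deposited peaks.

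The strongest members were nearly all LINE-1 heads. Of the 81 peaks with a −log10 p of at least 10, 71 (87.7%, 78.5% to 93.9%) lay in the head, against 774 of the 1813 weaker ones (42.7%, 40.4% to 45.01%). The 4 CpG-rich groups held 64 of the 81 (79.0%, 68.5% to 87.3%) and 592 of the weaker ones (32.7%, 30.5% to 34.9%). The median −log10 p was 6.80 in the head and 5.13 in the frame, in the last 1 kb before the frame and in the 1.5 kb behind it. By group it was 6.98, 6.21, 7.34 and 7.34 in groups 1, 2, 3 and 6, and 5.00 in groups 4 and 5, where none of the 125 and none of the 105 peaks reached 10 (upper limits of 2.91% and 3.45%). Head peaks masked over less than 80% of their length reached 10 in 58 of 599 cases (9.68%, 7.43% to 12.3%), and repeat-dominated head peaks in 71 of 845 (8.40%, 6.62% to 10.5%), with overlapping intervals.

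Strength moved with CpG in both sets of distal peaks. Among repeat-dominated peaks with 0 to 2 CpG, 3 of 696 had a −log10 p of at least 10 (0.431%, 0.0890% to 1.25%), and among those with 20 or more, 52 of 356 (14.6%, 11.1% to 18.7%). Other distal peaks gave 1.43% (0.802% to 2.35%) and 17.2% (14.0% to 20.8%) in the same classes. In the class of 10 to 19 CpG the shares were 4.46% (2.88% to 6.57%) and 8.49% (6.98% to 10.2%). Outside the head, too, peaks with 10 or more CpG stood higher: in the last 1 kb before the frame, the frame and the stretch behind it, 4 of 56 such repeat-dominated peaks (7.14%, 1.98% to 17.3%) and 1 of 648 with fewer CpG (0.154%, 0.00391% to 0.857%) reached 10. In repeat-dominated peaks length also moved with CpG, with a median of 375 bp at 0 to 2 CpG and 490 bp at 20 or more. Its part in the relation of strength to CpG was not tested.

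**Figure D3:**
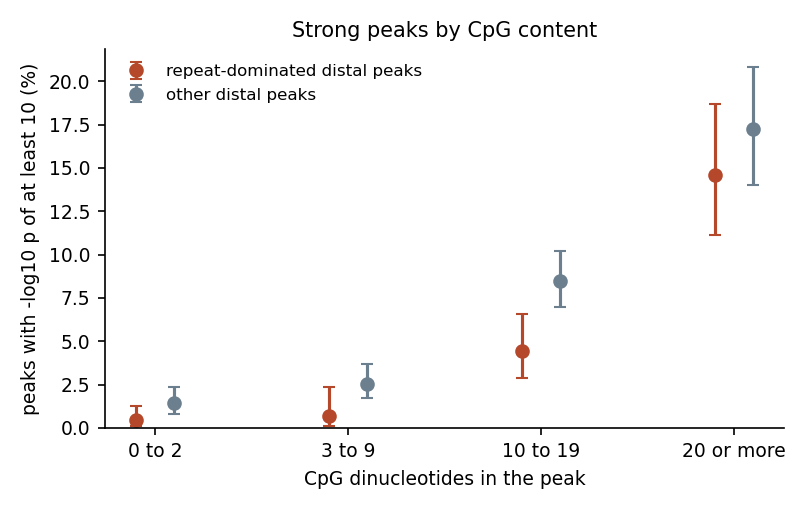
Share of peaks with a −log10 p of at least 10 (vertical axis, %) by the number of CpG dinucleotides in the peak (horizontal axis) for repeat-dominated and other distal peaks; points are shares and bars exact 95% binomial intervals. Both sets rise from under 2% with 0 to 2 CpG to 14.6% and 17.2% with 20 or more.

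The base composition of the repeat-dominated peaks had a pair of modes. Of the 1894 peaks, 765 (40.4%) had less than 45% GC, 255 (13.5%) from 45% to 52% and 874 (46.1%) more, while in other distal peaks the middle class held 949 of 3852 (24.6%). The high mode belonged to the LINE-1 heads, with a median GC content of 57.9% and 18 CpG, and 797 of 845 head peaks (94.3%, 92.5% to 95.8%) held 10 CpG or more. Only 38 of 473 peaks in the frame did (8.03%, 5.75% to 10.9%). The ratio of observed to expected CpG had a median of 0.320 in the whole set, 0.503 in the head and 0.114 in the frame. Windows of equal length 1 kb either side had a median ratio of 0.180 for head peaks, and 97.9% of head peaks exceeded their own flanks. For the set as a whole that share was 67.5%, and for other distal peaks 66.95%.

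**Figure D4:**
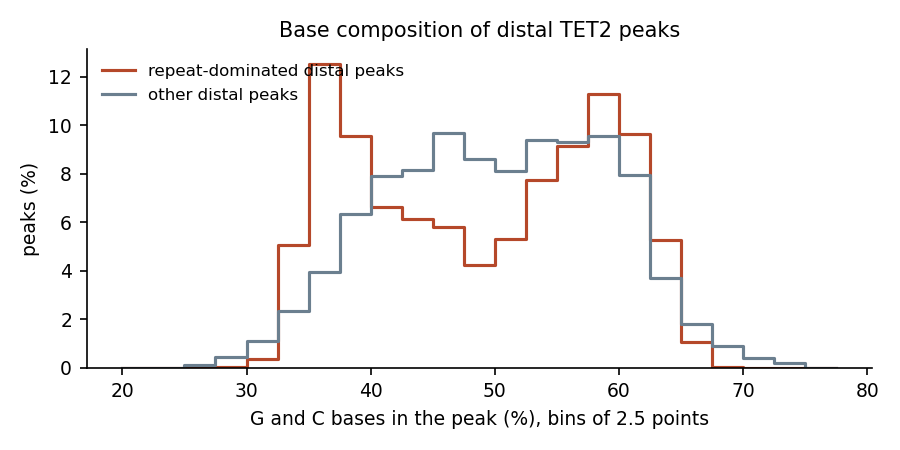
Share of peaks (vertical axis, %) by GC content (horizontal axis, %, bins of 2.5 points) for repeat-dominated and other distal peaks. Repeat-dominated peaks have a low mode near 35% to 40% and a high mode near 55% to 60% with 13.5% of peaks from 45% to 52%, and other distal peaks fill that middle range with 24.6%.

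How many places in the genome a peak could have come from was measured by words of 32 bases. A repeat-dominated peak's words occurred a median of 5 times in the assembly, against 1 in other distal peaks, which follows in part from the rule, since repeats were what it selected. In 564 peaks (29.8%, 27.7% to 31.9%) the median word occurred once, and in 243 (12.8%, 11.4% to 14.4%) over 100 times. Only 74 (3.91%, 3.08% to 4.88%) had at least 90% of their words in single copy, against 54.4% (52.8% to 56.0%) of other distal peaks. Even so, head peaks had a median of 31.1% of their words in single copy. Whether the reads over these words were placed uniquely is not known. The count depends on the length of the word, with a median of 34 copies at 24 bases and 1 copy at 48 bases.

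Copy number and −log10 p were also set side by side within classes of CpG. Without regard to CpG, the median was 6.21 in the 243 peaks with over 100 copies and 5.13 in the 564 with single-copy words, and 3.29% (1.43% to 6.38%) and 2.66% (1.496% to 4.35%) reached 10, with overlapping intervals. Among repeat-dominated peaks with 10 or more CpG, a −log10 p of at least 10 was reached by 14 of 123 whose median word occurred once (11.4%, 6.36% to 18.4%). With over 1 to 10 copies it was 36 of 323 (11.1%, 7.93% to 15.1%), with over 10 to 100 copies 20 of 285 (7.02%, 4.34% to 10.6%), and with over 100 copies 6 of 163 (3.68%, 1.36% to 7.84%). The intervals of neighbouring classes overlap, and so do those at 1 copy and at over 100 copies. Only the intervals at over 1 to 10 copies and at over 100 copies stay apart, by a narrow margin. With 0 to 9 CpG the shares ran from 0.227% (0.00574% to 1.26%) of 441 peaks with single-copy words to 2.5% (0.304% to 8.74%) of 80 with over 100 copies. These shares rest on 1 and 2 peaks, and their intervals overlap.

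**Figure D5:**
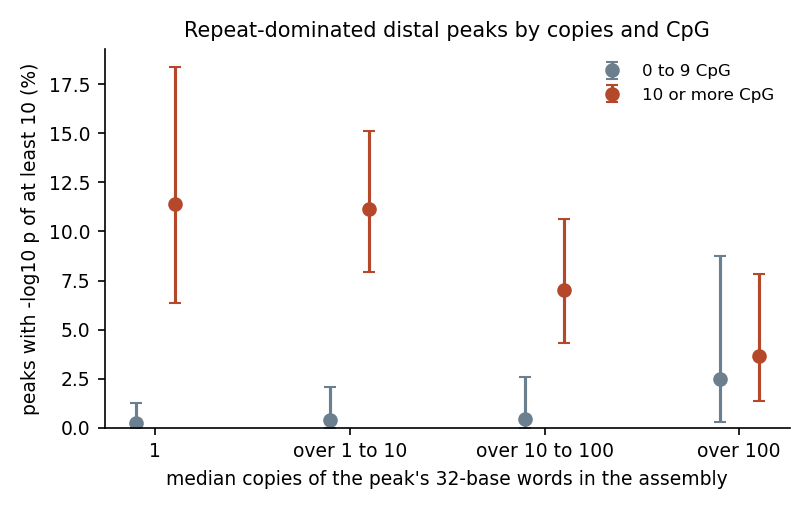
Share of repeat-dominated peaks with a −log10 p of at least 10 (vertical axis, %) by the median number of copies of their 32-base words in the assembly (horizontal axis), for peaks with 0 to 9 and with 10 or more CpG; bars are exact 95% binomial intervals. The CpG-rich peaks go from 11.4% at 1 copy to 3.68% at over 100 copies, with overlapping intervals, and the CpG-poor peaks stay at or below 2.5%.

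A tandem repeat, with at least 80% of bases equal to the base 1 period further on, filled 79 repeat-dominated peaks (4.17%, 3.32% to 5.17%) and 24 other distal peaks. The periods fell into 2 classes. Periods of 190 to 230 bp were found in 50 peaks, all 50 of them in a LINE-1 head, with 23 peaks at a period of 214, 12 at 201 and 7 at 199, and these are of the length of LINE-1 promoter monomers. Their median −log10 p was 7.34, with a range of 4.12 to 14.0, and their median GC content 62.2% with 23 CpG. Periods of 1 to 10 bp were found in 22 peaks, none in a head, with a median −log10 p of 5.55 and a largest value of 12.4. The remaining 7 peaks had other periods.

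The strongest peak of each long period shows how alike neighbouring monomers are. The pairs below give 30 bases of one monomer and the bases 1 period downstream, with the letters that differ in capitals, on the plus strand of GRCm38.
period 214, first: tccagacggtggccggctgtctgTggcccg
period 214, second: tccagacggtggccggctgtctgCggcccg
period 201, first: cacccgcagaccGccTgccgcggAgtcCcg
period 201, second: cacccgcagaccAccGgccgcggGgtcTcg
period 199, first: acacagcgccggccacaatccaatCgcacA
period 199, second: acacagcgccggccacaatccaatTgcacG
The first pair lies at chr9:38551584-38551613 and chr9:38551798-38551827, and 29 of its 30 bases match. Its peak, chr9:38551502-38552125 beside the odorant receptor gene Olfr910, had a −log10 p of 14.0 and matched itself 1 period on at 90.7% of its bases. The second pair lies at chr11:46014295-46014324 and chr11:46014496-46014525 in an intron of Sox30, a gene of the Sox family of transcription factors, and 26 bases match. That peak had a −log10 p of 10.5 and matched itself 1 period on at 82.6% of its bases. The pair of period 199, at chr10:66672001-66672030 and chr10:66672200-66672229, matches at 28 bases, in a peak with a −log10 p of 8.51. Over the whole of this peak the match was 94.9%.

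Among the short periods, 13 peaks had a period of 6, 4 a period of 4 and 3 a period of 3. The strongest of period 4 and of period 3 are shown with 1 unit in capitals.
period 4: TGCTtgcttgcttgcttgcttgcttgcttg
period 3: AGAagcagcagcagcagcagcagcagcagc
The first lies at chr2:84469817-84469846 in an intron of Tfpi, an inhibitor of blood coagulation, in a peak with a −log10 p of 7.16. The second, in which AGC units follow a first unit of AGA, lies at chr13:114482763-114482792, where the nearest TSS is that of Fst, which encodes the activin-binding protein follistatin, in a peak with a −log10 p of 11.5.

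Short motifs of factors of interest in fat cells were counted on both strands within 100 bp of each midpoint, beside windows of the same length 1 kb to either side. The SP1 motif GGGCGG stood in 11.6% of repeat-dominated peaks (10.2% to 13.1%) against 0.95% of flanks (0.666% to 1.31%), and in 12.4% of other distal peaks (11.4% to 13.5%) against 2.44% of theirs (2.11% to 2.81%). The AP-2 motif GCCNNNGGC stood in 13.4% (11.9% to 15.03%) against 1.53% of flanks (1.16% to 1.97%), and in 11.4% of other distal peaks (10.4% to 12.4%) against 3.18% of theirs (2.80% to 3.60%). Among repeat-dominated peaks both lay mostly in the LINE-1 heads: SP1 was found in 23.6% of head peaks (20.7% to 26.6%) and 2.0% of the rest (1.24% to 3.04%), and AP-2 in 26.2% (23.2% to 29.3%) and 3.15% (2.18% to 4.39%). GC-rich motifs are commoner in GC-rich sequence, and the heads were GC-rich beside their flanks.

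The C/EBP motif TTNNGCAA, that of the family whose members drive fat cell differentiation, was found in 7.97% of repeat-dominated peaks (6.79% to 9.29%) and 7.44% of their flanks (6.63% to 8.33%). In other distal peaks it stood in 5.37% (4.68% to 6.13%), below the 8.85% of their flanks (8.23% to 9.51%). Head peaks held it in 8.52% (6.73% to 10.6%), against 4.85% of their own flanks (3.88% to 5.99%). Peaks outside the head gave 7.53% (6.01% to 9.30%) and 9.53% (8.31% to 10.9%). The AP-1 motif TGANTCA was rare in the repeat-dominated set, with 1.06% (0.646% to 1.63%) against 4.09% of flanks (3.48% to 4.77%). The PPAR and RXR motif searched, 2 copies of AGGTCA 1 base apart, was in no repeat-dominated peak (upper limit 0.195%) and in 2 other distal peaks. Since head peaks share their sequence, 1 ancestral match can be counted many times, and these shares do not rest on independent places.

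Other repeat families could be named only as far as the annotation held their sequences. Similarity to the annotated B1 element, a short retrotransposon derived from 7SL RNA, was found in 74 repeat-dominated peaks (3.91%, 3.08% to 4.88%) and 177 other distal peaks (4.6%, 3.96% to 5.30%). Similarity to 7SL RNA itself was found in 8 and 33 peaks and to 4.5S RNA in 5 and 27. None of the repeat-dominated peaks resembled 5S ribosomal RNA, 7SK, U6, an annotated tRNA or the mitochondrial genome, each with an upper limit of 0.195%. For the 236 peaks (12.5%, 11.01% to 14.0%) without LINE-1 frame similarity within 10 kb, the median −log10 p was 5.13, and 2 reached 10.

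The repeat-dominated peaks were more often intergenic than other distal peaks and lay farther from a TSS. The rule on masked bases may bear on both values, and gene density was not measured. Of the 1894, 1400 were intergenic (73.9%, 71.9% to 75.9%), 489 intronic (25.8%, 23.9% to 27.9%) and 5 in exons of noncoding genes, while 54.6% (53.03% to 56.2%) of other distal peaks were intergenic. The median distance to a TSS was 27510 bp, against 19136 bp. Their density on autosomes was 0.769 per Mb and was highest on chromosome 3, at 0.944 per Mb (exact 95% Poisson interval 0.799 to 1.11), and lowest on chromosome 19, at 0.472 (0.316 to 0.678). The interval of chromosome 3 overlaps that of chromosome 6, at rank 2 with 0.875 (0.731 to 1.04), but not that of chromosome 19. Other distal peaks had a different order, with chromosome 3 at rank 16 and chromosome 19 at rank 3. Neighbouring members were far apart, with a median gap of 709030 bp and 15 pairs within 10 kb.

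Introns of 316 protein-coding genes held 360 of the repeat-dominated peaks, and 34 genes held 2 or more. Cdh18, which encodes a cadherin, held 4. The nearest TSS was that of an olfactory or vomeronasal receptor gene for 70 peaks (3.70%, 2.89% to 4.65%), against 1.22% (0.898% to 1.62%) of other distal peaks. These receptor genes stand in large clusters rich in LINE-1.

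The peak with the largest −log10 p, 24.4, lay at chr1:85147463-85148070 in an intron of C130026I21Rik. It was the only member at 20 or above. It had 27 CpG, its words occurred a median of 95 times in the assembly, and it lay 1526 bp before a long frame. Another member among the 10 strongest lay in the same gene, at chr1:85231122-85231567 with a −log10 p of 13.7. A further one lay nearby in an intron of Gm2619, at chr1:85299442-85299960 with a −log10 p of 16.1, again in a LINE-1 head 1520 bp before the frame.

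The next places were intergenic. The peaks at chr12:61154385-61154938 (15.7, nearest TSS that of Gm48301), chr4:69216460-69217046 (14.4, Gm11404) and chr4:92710317-92710828 (14.0, Gm22605) lay in LINE-1 heads. So did those at chr5:30049599-30050186 (13.6), whose nearest TSS is that of Tyms, the thymidylate synthase of DNA synthesis, and at chr2:100944116-100944619 (13.4, Gm13810). The peak at chr2:89519841-89520519, among odorant receptor genes beside Olfr1243, had a −log10 p of 14.1 and no place in a head. With the monomer peak beside Olfr910, 8 of the 10 strongest members lay in LINE-1 heads.

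Of the 74 members with at least 90% of words in single copy, none reached a −log10 p of 10. The upper limit of 4.86% takes in the 4.28% of all members. Their median −log10 p was 5.13 with a median of 1 CpG, and members with 0 to 2 CpG had the same median. The strongest, 9.72, lay at chr12:109477532-109478432, with its nearest TSS 18139 bp away at Dlk1, an imprinted gene whose product keeps preadipocytes from differentiating. It had 1 CpG over 901 bp and no LINE-1 frame nearby. The second, 9.59, lay at chr16:69429710-69430163 with 25 CpG, beside 4930428D20Rik. Members followed in introns of Kcnk2, a potassium channel gene (8.65), of Spock1, which encodes a proteoglycan of the extracellular matrix (8.10), and of Slpi, which encodes a protease inhibitor of secretions (7.34). The others of the 10 strongest in single copy had values of 7.05 to 8.51, with nearest TSSs at Gm17745, Gm49409, 4930431F12Rik, Engase and Gm26297, and Engase encodes an enzyme that trims glycans.

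Outside the group of 1679 the groups of similar peaks were small. Of the 1679, 1487 (88.6%, 86.9% to 90.05%) lay in the head, the frame or the stretches next to it, and 130 had no LINE-1 frame similarity within 10 kb. A group of 8 had its strongest peak, 6.21, in an intron of Mgat4c, a glycosyltransferase gene. A group of 7 was led by a peak of 8.85 near CT485613.6. A group of 6 was led by the AGC repeat near Fst, and groups of 4 by the repeat in Tfpi and by a peak of 9.72 in Stx1a, which encodes a syntaxin of synaptic vesicle release. Groups of 3 were led by a peak of 6.21 near Hdac2, a histone deacetylase gene, and by one of 5.13 in Taf4b, which encodes a subunit of the TFIID complex. The peak near Hdac2 was placed in a LINE-1 frame and that in Taf4b behind one, so the groups do not separate LINE-1 from other sequence.

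Peaks were also counted at a list of genes of fat cells. Of 52 genes of adipocytes, the TET family and leptin signalling, 2 had a repeat-dominated peak in an intron or nearest to their TSS (0.106% of peaks, 0.0128% to 0.381%), and 5 had 9 other distal peaks (0.234%, 0.107% to 0.443%). The intervals overlap, and the share that any list of 52 genes would hold was not computed. The first lay at chr11:84152033-84152407 in an intron of Acaca, which encodes acetyl-CoA carboxylase of fatty acid synthesis, with a −log10 p of 6.04 and 10 CpG. The second lay in an intron of Tet2 itself, at chr3:133495121-133495495, with a −log10 p of 5.00 and 1 CpG.

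The 80% limit cut through a continuous set. The 3 members just above it had a −log10 p of 8.51 at Gm17745, 6.21 at Mir6412 and 4.12 at Vmn1r205, and the 3 other distal peaks just below it had 9.80 at Gm26133, 8.85 at Gm12911 and 6.21 in A230057D06Rik. All 3 below the limit, and the members at Mir6412 and Vmn1r205, lay in LINE-1 heads.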

How the data were processed

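The data are 1 ChIP-seq library for TET2 and the peak list called from it against 1 input library. The authors trimmed reads with NGS QC Toolkit, aligned them with bowtie1 and called peaks with MACS2 (version 2.1.0 in the submitters' processing notes). The deposited value was read as the −log10 of the peak caller's p-value and was used here only to describe and rank peaks. The stated caller setting is a p-value of 1e-05, but 436 members (23.0%) and 2182 of all peaks lie under a −log10 p of 5, so that setting did not bound this list. In 53.5% of members and 33.6% of all peaks the value is that of a Poisson p-value of a whole count, at a mean fitted to these same values. How reads with several equal matches were placed is not given in the sources used here, and this bears directly on peaks in repeats. The methods name GRCm39 and the processing notes mm10, which is GRCm38, and the latter was used, with RefSeq and GENCODE M21 annotation and no conversion.

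The members and lists were chosen with earlier results of these data known. With 1 library no p-value was computed across peaks, and shares have exact (Clopper-Pearson) 95% intervals. Lower case in the RefSeq sequence set the masked share, and the program that set it is not named in that sequence. It covers 33.5% of autosomal bases. Words were counted on both strands of the primary assembly. Groups were joined by single linkage of blastn 2.17.0 alignments (E value at most 1e-05), and frames placed by tblastn (E value at most 1e-10, at least 50 residues). A peak was put in a head where an alignment that begins in the first 300 residues starts 1 to 3 kb ahead, and otherwise by the nearest alignment. Of several alignments that could place a peak in a head, the one of highest identity was used. Scripts used Python 3.11.15, numpy 2.4.6 and scipy 1.17.1, and the steps for words, periods and frames were tested on simulated data.

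Named peaks were the 10 largest −log10 p, the 10 largest in single copy, the strongest of the 8 largest groups and 5 commonest periods, those at listed adipocyte genes, and 3 on either side of the 80% limit. Some of these items are not reported here.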

Additional observations from a re-analysis of the deposited data

How the results depend on the processing

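The number of repeat-dominated peaks stayed between 1317 and 2395 with masked limits of 70% and 90%, other TSS distances, RefSeq annotation or a −log10 p of at least 5, and was 504 at 100% masked and 81 with a −log10 p of at least 10. The median −log10 p was 5.45 at 90% masked, 5.13 at 100% and 5.13 with only the strongest peak of each group. The share at 10 or above was 1.59% at 100% masked, and 16.2% and 0.0528% with limits of 8 and 20, which count other peaks by construction. The median CpG ratio was 0.273 at 90% masked, 0.197 at 100%, 0.417 and 0.490 with a −log10 p of at least 5 and 10, and 0.350 in the 200 bp around the midpoint. Median copies were 3, 9 and 27 at 70%, 90% and 100% masked, 34 with words of 24 bases and 1 with 48. The single-copy share was 5.34%, 2.66% and 2.98% at these masked limits, 0 with a −log10 p of at least 10, 0.475% with words of 24 bases, 16.4% with 48, and 30.04% where 50% of the words had to be in single copy. The tandem share was 5.24% at 90% masked, 5.36% at 100%, 9.88% with a −log10 p of at least 10, and 10.6% and 1.21% with 70% and 90% matching bases. Peaks in groups numbered 970 at 90% identity over 80%, and 78 of 81 with a −log10 p of at least 10. Within 50 bp of the midpoint, and over the whole peak, the motif shares were 3.27% and 14.8% for C/EBP, 6.12% and 17.4% for SP1, 5.44% and 17.2% for AP-2, and 0.475% and 3.01% for AP-1, since a wider window holds more matches. The PPAR and RXR motif was in no flank at 2 kb (0). Other causes were not tested.

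Alternatives for the LINE-1 layout were chosen after seeing the data. The share of members in the head was 31.3% by the nearest alignment alone, 70.1% among alignments of at least 80% identity, 87.7% with a −log10 p of at least 10 and 73.7% of those with an intact frame within 10 kb. The placement itself raises the 70.1%, since head peaks kept the alignment of highest identity and other peaks the nearest one. The share of intact frames with a peak before them was 8.41% with frames of at least 1200 codons, 8.08% with peaks of a −log10 p of at least 5 and 0.413% with at least 10.

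No paired analysis was possible because the single TET2 and input libraries form no second pair, and with 1 library there was no replicate to leave out. The list holds no read totals, and the median 32-base word was in single copy in only 29.8% of members, so the values of single peaks are imprecise.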

Other observations

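Outside the autosomes, 88 of 151 distal peaks on the X chromosome and 4 of 9 on the Y chromosome were masked over at least 80% of their length. The largest −log10 p among these was 12 on X and 10.97 on Y. Intact LINE-1 frames of the X chromosome had a TET2 peak 1 to 3 kb before them in 12 of 451 cases (2.66%, exact 95% binomial interval 1.38% to 4.6%), below the 8.83% (7.96% to 9.77%) of the autosomes. Behind the frame a peak was found in 1 case on X (0.222%, 0.00561% to 1.23%), and 10 to 12 kb before it in none (upper limit 0.815%). The labels give no sex and the study names male mice, which have 1 X chromosome. The part of that in the difference was not tested.

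The densest windows of 1 Mb were chr13:86000001-87000000 with 8 repeat-dominated peaks and chr9:11000001-12000000 with 7.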
